A study of Mus musculus with 6 samples.

Results

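The genes described here are 10 proteases and inhibitors of the lung matrix and cell surface, namely Mmp2, Mmp3, Mmp8, Mmp9, Mmp14, Adam10, Adam17, Timp1, Timp2 and Timp3. They were chosen by name, as enzymes that cut matrix or release syndecans from cells, together with their inhibitors. Each was read from the probe with the highest mean signal over all arrays among the probes whose accession maps to the gene. All 10 were among the 16370 genes tested. Their probes, 15 in all because 5 of the genes have a second one, were well above background on all 6 arrays, and none was saturated.

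All mice were male C57BL6 animals aged 10 weeks, starved for 16 h and then given 20 mg/kg of LPS, a bacterial endotoxin, into the peritoneum. The saline group (3 mice) received saline at 3 and 24 h after LPS, and the rhTM group (3 mice) received recombinant human thrombomodulin (rhTM), the soluble form of an endothelial cofactor for protein C activation, at the same times. Lungs were taken at 30 h, and whole lung RNA of each mouse was read on its own 1-colour Agilent array. Mice without LPS were not analysed here, so the comparison concerns rhTM against saline in lungs that all had been exposed to endotoxin.

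Matrix metalloproteinases are zinc-dependent enzymes that are made as inactive proenzymes and, once their propeptide is removed, cut collagens, gelatin, elastin, proteoglycans and other proteins outside the cell. ADAM10 and ADAM17 sit in the cell membrane and cut neighbouring membrane proteins close to the surface, which releases cytokines, growth factor precursors, adhesion molecules and syndecan ectodomains. Tissue inhibitors of metalloproteinases (TIMPs) bind the active site of these enzymes, and in lung the balance of enzymes and TIMPs bears on the basement membrane, on leukocyte passage and on the endothelial glycocalyx. An array measures transcripts only, and neither proenzyme activation nor shedding can be read from it.

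The arrays differed in ways that touch the values of the 10 genes. Besides the scanner output of each array, the authors deposited a table of processed values, and in it the columns of saline replicate 1 and rhTM replicate 2 hold each other's scanner signals (99.9% of probes equal within 0.1%). Which assignment is right could not be settled, so values follow the scanner output. Those of the table and those without both arrays are given beside the results of the 10 genes, and those of the table beside other genes and markers that are named. The arrays came from 2 slides, with saline replicate 1 and rhTM replicate 3 on slide 2 and the other 4 on slide 1. By the table's assignment slide 2 holds rhTM arrays only. A fit of the table blocked on slide therefore sets rhTM replicate 1 alone against the saline lungs. The spike-in slope of saline replicate 1 was 0.826, outside the range set by the scanner software, against 1.07 to 1.09 on the other arrays. Markers of the tissue were present, with Sftpc, Ager and Scgb1a1, which mark alveolar type 2, alveolar type 1 and club cells, well above background on all 6 arrays, and of 4 hepatocyte markers Apoa1 was above background on 0 arrays, Ttr on 1, Serpina1c on 4 and Cyp2e1 on 6.

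Levels below are multiples of the array's 75th percentile of signal, and fold changes are differences of mean log2 level, rhTM minus saline. Levels of different genes are not compared, since probes differ in brightness. By limma, 0 of the 10 genes passed an adjusted p of 0.05, and every one of them had an adjusted p of 0.9999. At an unadjusted p below 0.05 the count was 0 of 10 by limma and 0 of 10 by the methods' t-test. Over all genes tested 0 of 16370 (0%) passed after adjustment and 306 (1.87%) before it. The mean was higher in rhTM for 6 of the 10 genes, where 50.7% of all genes were higher, and the median difference of the 10 was 0.14 against 0.00 over all genes. In 2 of the 10, Mmp3 and Timp3, the groups did not overlap, as in 5.52% of all genes. Both had every rhTM array above every saline array (2.95% of all genes), and 0 of the 10 had the reverse (2.57%). By the authors' table the mean was higher in rhTM for 7 (46% of all genes), and the median difference was 0.05 against -0.02 over all genes. By limma 0 passed there after adjustment (0% of 16320 genes) and 1 before it (14% of all genes). That gene, Adam17, was also the 1 of the 10 without overlap (21.7% of all genes), while 0 of the 10 lay wholly above (9.68%). A single gene was also tested with an exact two-sided permutation test, which over 20 regroupings of 3 against 3 arrays cannot go below 0.1.

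**Figure D1:**
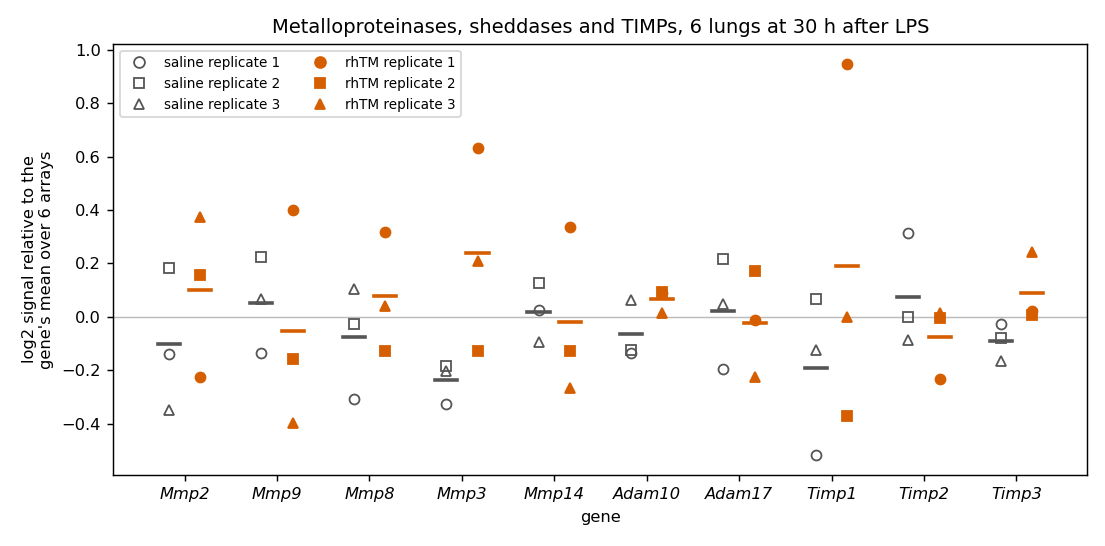
Log2 signal of each of the 10 genes on each array, relative to the gene's mean over the 6 arrays, for saline (open grey) and rhTM (filled orange), with symbols for replicates and bars for group means. Only for Mmp3 and Timp3 do all 3 rhTM points lie above the 3 saline points, and for Mmp3, Mmp8, Mmp9, Mmp14 and Timp1 the highest point is rhTM replicate 1.

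Mmp3 (stromelysin-1), which cuts proteoglycans, laminin and fibronectin and activates other proenzymes, showed the widest mean difference of the 10. Its level was 6.29, 6.94 and 6.86 in the saline lungs and 12.2, 7.22 and 9.12 in the rhTM lungs of replicates 1, 2 and 3. All rhTM lungs lay above all saline lungs, rhTM replicate 1 by far the most and rhTM replicate 2 by little. The means were 6.70 ± 0.358 (SD, n = 3) in saline and 9.53 ± 2.53 (SD, n = 3) in rhTM. The log2 difference was 0.48 (SE 0.20), a fold of 1.39 with a 95% interval of 0.997 to 1.94, with p = 0.051 before adjustment by limma and p = 0.1 in the exact permutation test, the smallest it allows. Transcripts were measured in whole lung, so fewer cells of a type and less RNA per cell cannot be told apart, here or for the other genes. The log2 difference was 0.28 without rhTM replicate 1 and 0.61 without both exchanged arrays. Within slide 1 it was 0.45 and within slide 2, with 1 array a group, 0.54. By the authors' table the groups overlapped and the log2 difference was 0.34. Blocked on slide the table gave 0.80, which is rhTM replicate 1 alone against the saline lungs.

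Among the 10 genes, Timp1 came next after Mmp3 in the size of its mean difference. The stretches upstream of these 2 genes are therefore printed, in 5′ to 3′ order on the coding strand. They are the 250 bases before the RefSeq transcription start on the GRCm38.p6 assembly, at chr9:7445572-7445821 (plus strand) for Mmp3 and chrX:20869916-20870165 (plus strand) for Timp1. Capitals mark matches to an AP-1 motif (TGANTCA) and a TATA motif (TATAAA).
Mmp3: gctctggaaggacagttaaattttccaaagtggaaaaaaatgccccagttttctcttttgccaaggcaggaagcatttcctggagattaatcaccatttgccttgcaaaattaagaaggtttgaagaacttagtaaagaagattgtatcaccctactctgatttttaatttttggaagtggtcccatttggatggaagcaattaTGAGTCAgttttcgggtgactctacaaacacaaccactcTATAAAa
Timp1: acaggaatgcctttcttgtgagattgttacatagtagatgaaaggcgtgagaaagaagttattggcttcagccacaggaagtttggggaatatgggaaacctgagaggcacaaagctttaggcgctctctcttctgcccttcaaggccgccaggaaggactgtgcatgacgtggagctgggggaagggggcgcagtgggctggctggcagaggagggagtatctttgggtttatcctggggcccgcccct

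Each stretch was searched on both strands, and the kappaB motif, bound by NF-kappaB, was searched too. The Mmp3 stretch held 1 AP-1 match, 46 bases before the start, and 1 TATA match, 7 bases before it. The Timp1 stretch held no match to any of the motifs. Of the 32851 mouse promoters searched over the same length, 6.75% held the AP-1 motif, 12.4% the TATA motif and 3.90% the kappaB motif. The other 6 of the 8 member genes listed with a promoter held none of them, and Mmp2 and Mmp9 are not listed. A match is a stretch of letters and was not set against factor binding.

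Neither gelatinase differed by more than the spread between lungs. Mmp2 (gelatinase A), made by fibroblasts and other stromal cells, had levels of 2.11, 2.63 and 1.82 in saline and 1.98, 2.58 and 3.00 in rhTM. The groups overlapped, with rhTM replicate 3 highest and saline replicate 3 lowest. The log2 difference was 0.20 (SE 0.21) and the fold 1.15, with a 95% interval of 0.817 to 1.62 (exact permutation p = 0.5). It was 0.05 within slide 1, 0.51 within slide 2, 0.16 without both exchanged arrays and 0.0061 by the authors' table. Blocking on slide in the table turned it to -0.22, that of rhTM replicate 1 alone against the saline lungs.

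Mmp9 (gelatinase B), stored in the tertiary granules of neutrophils and induced in macrophages, had levels of 5.98, 7.68 and 6.90 in saline and 8.68, 5.89 and 4.99 in rhTM. The highest and the lowest lung were both rhTM-treated, replicates 1 and 3. The mean was 6.85 ± 0.847 (SD, n = 3) in saline and 6.52 ± 1.93 (SD, n = 3) in rhTM, a log2 difference of -0.10 (SE 0.22, exact permutation p = 0.7). Its second probe gave -0.12 (table -0.15). Without rhTM replicate 1 the log2 difference was -0.33, with the other 2 rhTM lungs below all saline lungs, and without both exchanged arrays it was -0.14. The authors' table gave -0.09, and 0.36 when blocked on slide, where rhTM replicate 1 alone is set against the saline lungs.

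Mmp8 (neutrophil collagenase), a product of specific granules, stood at 19.3, 23.5 and 25.7 in saline and 29.8, 21.9 and 24.6 in rhTM. rhTM replicate 1 was the highest and saline replicate 1 the lowest, with the other 4 lungs between them. The means of 22.8 ± 3.22 and 25.4 ± 4.02 (SD, n = 3 each) differed by 0.15 on the log2 scale (SE 0.17, 95% interval -0.25 to 0.56, exact permutation p = 0.5). The difference was 0.06 within slide 1, 0.35 within slide 2, 0.14 without both exchanged arrays and 0.03 by the authors' table. Without rhTM replicate 1 it was 0.03, and in the table blocked on slide, which rests on that array alone, 0.33.

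The summed level of neutrophil markers was highest on the array that had the highest Mmp8 and Mmp9, rhTM replicate 1. Of 10 neutrophil markers 9 were tested and 7 of these were higher in rhTM, with a median log2 difference of 0.05 and 0 past the threshold. Ly6g has no probe named here. The summed level of the 9 was 919 to 1080 in saline and 936 to 1196 in rhTM, with the maximum on rhTM replicate 1. S100a8 and S100a9 make up most of that sum, and the other 7 summed to 244, 245 and 272 in saline and 364, 251 and 236 in rhTM. With each of the 9 weighted equally, the mean log2 value relative to each marker's own mean was 0.35 on rhTM replicate 1 and -0.17 to -0.031 on the other 5 arrays. Singly, 4 of the 9 were highest on rhTM replicate 1 (Retnlg, Ngp, Camp and Csf3r), and S100a9 and Mpo on saline replicate 1, S100a8 on rhTM replicate 3, Ltf on saline replicate 2 and Cxcr2 on saline replicate 3. In the authors' table the sum of all 9 was 919 to 1020 in saline and 1064 to 1196 in rhTM, without overlap, whereas that of the 7 overlapped, at 245 to 272 and 236 to 364. The median log2 difference of the markers was 0.23, with 3 of the 9 wholly higher in rhTM against 9.68% of all genes. By the scanner output the sum of endothelial markers was also highest on rhTM replicate 1, at 98.5 to 119 in saline and 103 to 147 in rhTM. Those of macrophage, fibroblast, alveolar and club cell markers were not. The sum over all genes tested was highest there too, at 127337 to 137249 in saline and 129202 to 141742 in rhTM. In the table the sum over all genes tested did not overlap, at 127328 to 129732 in saline and 135766 to 141736 in rhTM. The part of neutrophil number in these values was not tested.

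Mmp14 (MT1-MMP), a membrane-bound collagenase that also activates proMMP2, had levels of 1.20, 1.29 and 1.10 in saline and 1.49, 1.08 and 0.981 in rhTM. As for Mmp9, rhTM replicate 1 was the highest and rhTM replicate 3 the lowest of the 6. The log2 difference of -0.04 (SE 0.18, exact permutation p = 0.9) had no stable sign. It was 0.09 within slide 1, -0.29 within slide 2, 0.02 without both exchanged arrays and 0.06 by the authors' table.

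Neither sheddase passed the test. Adam10, which cuts Notch receptors, cadherins and several chemokine and growth factor precursors, had levels of 6.39, 6.44 and 7.34 in saline and 7.47, 7.48 and 7.09 in rhTM. rhTM replicates 1 and 2 lay above all saline lungs, and rhTM replicate 3 below saline replicate 3. The log2 difference was 0.13 (SE 0.12, 95% interval -0.15 to 0.41, exact permutation p = 0.2). The second Adam10 probe differed in sign, at -0.14 (table -0.09), and the authors' table gave -0.02 for the first, so no direction can be given. Without both exchanged arrays the log2 difference was 0.08.

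Adam17, the enzyme that releases TNF and one of those that release syndecan-1, had levels of 1.76, 2.34 and 2.08 in saline and 2.00, 2.27 and 1.73 in rhTM. The lungs of both groups were mixed in order, and the means of 2.06 ± 0.291 and 2.00 ± 0.272 (SD, n = 3 each) gave a log2 difference of -0.04 (SE 0.16, exact permutation p = 0.7). Of the 10 genes its log2 difference moved most with the exchanged columns. By the authors' table the low lung of saline replicate 1 becomes an rhTM lung, all rhTM lungs then lie below all saline lungs, and the log2 difference is -0.29 (SE 0.11, p = 0.035 before and 0.337 after adjustment by limma, exact permutation p = 0.1). Of all genes 12% lie wholly below in the same way by that table. Blocked on slide, the table gave a log2 difference of -0.15, that of rhTM replicate 1 alone against the saline lungs. Without both exchanged arrays the log2 difference was -0.25, and the second probe gave -0.03 in the scanner signals against -0.06 in the table.

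Timp1, an inducible inhibitor of secreted metalloproteinases and a gene raised in acute inflammation, had the widest spread of the 10 among rhTM lungs on the log2 scale. Its level was 29.3, 43.9 and 38.5 in saline and 80.9, 32.4 and 41.9 in rhTM. A single lung, rhTM replicate 1, stood far above the other 5, and the other 2 rhTM lungs lay within the range of saline. The means were 37.3 ± 7.41 and 51.8 ± 25.7 (SD, n = 3 each), a log2 difference of 0.38 (SE 0.35) and a fold of 1.30 with a 95% interval of 0.737 to 2.31 (exact permutation p = 0.5). Without rhTM replicate 1 the log2 difference was 0.0043, and without both exchanged arrays 0.50. By the authors' table it was 0.29, or -0.12 without rhTM replicate 1. In the table blocked on slide it was 1.09, that of rhTM replicate 1 alone against the saline lungs.

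Timp2, a mostly constitutive inhibitor that also takes part in the activation of proMMP2 by MT1-MMP, stood at 90.0, 72.3 and 68.1 in saline and 61.5, 72.05 and 73.0 in rhTM. The highest lung was saline replicate 1 and the lowest rhTM replicate 1, with the other 4 close together. The log2 difference was -0.15 (SE 0.15, exact permutation p = 0.5), and -0.27 by the second probe. By the authors' table the first probe turned to 0.06 and the second stayed negative, at -0.25. Without both exchanged arrays the log2 difference of the first was -0.07.

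Timp3, which binds to the matrix and inhibits ADAM17 as well as metalloproteinases, had levels of 62.3, 60.1 and 56.6 in saline and 64.4, 63.8 and 75.1 in rhTM. All rhTM lungs lay above all saline lungs, replicates 1 and 2 by a small margin and replicate 3 by a wider one. The means of 59.7 ± 2.89 and 67.8 ± 6.34 (SD, n = 3 each) gave a log2 difference of 0.18 (SE 0.12) and a fold of 1.13 with a 95% interval of 0.926 to 1.39, with p = 0.184 before adjustment by limma and p = 0.1 in the exact permutation test. The second probe gave 0.17. By the authors' table the groups overlapped and the log2 difference was 0.16, with 0.0003 for the second probe. Without both exchanged arrays it was 0.25.

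Fibroblasts express Mmp2 and Timp3, and the summed level of their markers was highest on the same array as both genes. Of 8 fibroblast markers 7 were higher in rhTM, with a median log2 difference of 0.21 and 0 past the threshold. Their summed level was 119 to 146 in saline and 124 to 182 in rhTM, with the maximum on rhTM replicate 3. Singly, 4 of the 8 were highest there (Col1a1, Col1a2, Col3a1 and Pdgfrb), Pdgfra and Lum on rhTM replicate 1, Tcf21 on rhTM replicate 2 and Dcn on saline replicate 1. Without Dcn the other 7 summed to 66.7 to 82.2 in saline and 60.4 to 130 in rhTM, again with the maximum on rhTM replicate 3. With all 8 weighted equally, the mean log2 value was 0.46 on that array and -0.23 to 0.028 on the other 5. In the authors' table the sums were 119 to 127 in saline and 124 to 182 in rhTM, with a median log2 difference of 0.19. The sum of club cell markers was also highest on rhTM replicate 3, at 602 to 762 in saline and 548 to 794 in rhTM. In the table it was 548 to 657 and 708 to 794. Among the other genes described here, Mmp9, Mmp14 and Adam17 were lowest on that array. Mmp3, Mmp8, Mmp9, Mmp14 and Timp1 were highest on rhTM replicate 1. The part of fibroblasts in the levels of Mmp2 and Timp3 was not tested.

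**Figure D2:**
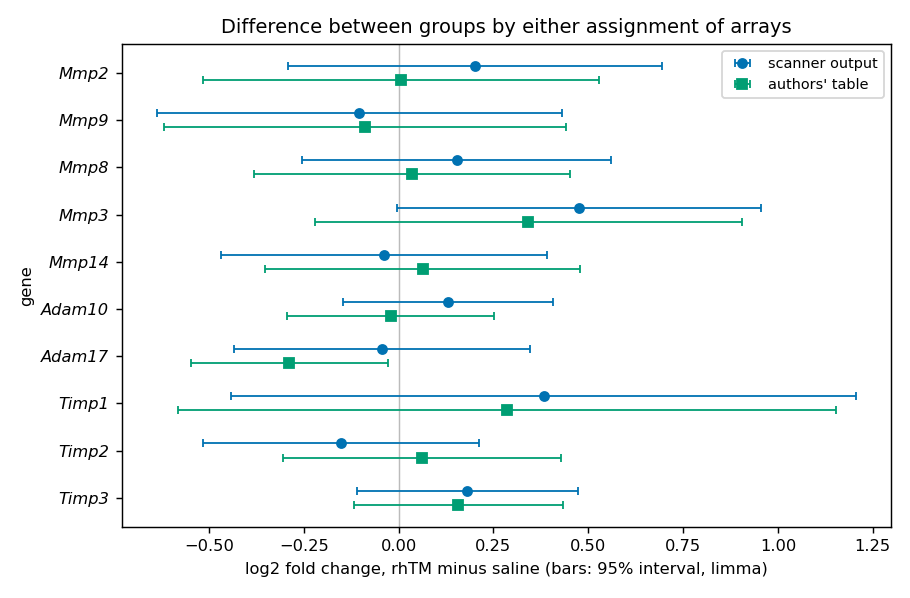
Log2 fold change (rhTM minus saline) of each of the 10 genes with its 95% interval from limma, from scanner signals (circles) and from the deposited table (squares), 3 arrays a group. The interval reaches 0 for all 10 genes by the scanner output and leaves it only for Adam17 by the table.

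The extremes of the 10 genes lay mostly on rhTM replicates 1 and 3 and saline replicate 1. rhTM replicate 1 was the highest of the 6 arrays for 5 genes (Mmp3, Mmp8, Mmp9, Mmp14 and Timp1), where it was the highest for 29.8% of all genes, and the lowest for 1, Timp2 (26.6% of all genes). Saline replicate 1 was the lowest for 4 (Mmp3, Mmp8, Adam10 and Timp1), where it was the lowest for 17.4% of all genes. By the authors' table that array is rhTM replicate 2, so those 4 values fall in the rhTM group. rhTM replicate 3 was the highest for 2, Mmp2 and Timp3 (14.9% of all genes), and the lowest for 3, Mmp9, Mmp14 and Adam17 (18.9%). Without rhTM replicate 1, the groups did not overlap for 4 of the 10 (Mmp3 and Timp3 higher in rhTM, Mmp9 and Mmp14 lower), against 10.8% of all genes. For Mmp9 and Mmp14 the array left out was the highest of the 6, and 2 rhTM lungs remain, so no test is made of this count.

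**Figure D3:**
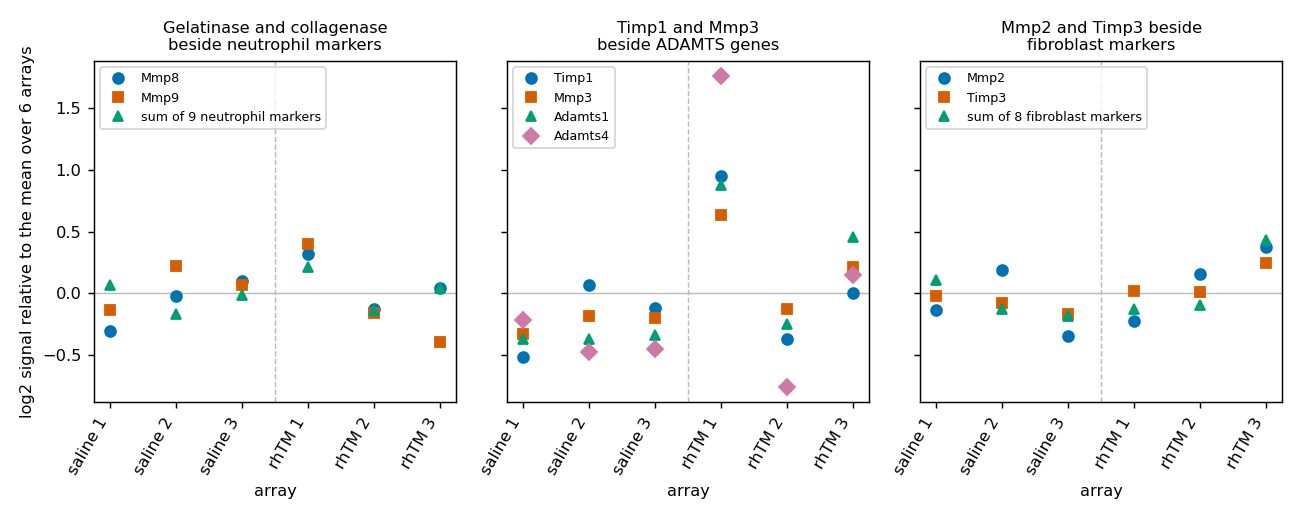
Log2 signal on each array, relative to the mean over the 6 arrays, of Mmp8 and Mmp9 with the sum of 9 neutrophil markers (left), of Timp1 and Mmp3 with Adamts1 and Adamts4 (middle), and of Mmp2 and Timp3 with the sum of 8 fibroblast markers (right). The dashed line parts saline from rhTM arrays. The neutrophil sum, Mmp8, Mmp9 and the genes of the middle panel peak on rhTM replicate 1, and those of the right panel on rhTM replicate 3.

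The wider protease system was described with 8 lists of related genes, of which 98 of 116 genes were tested. By limma, 0 of the 98 passed an adjusted p of 0.05, 4 had an unadjusted p below 0.05 (1.87% of all genes did) and the methods' t-test gave 3 before and 0 after adjustment. By the table's assignment 0 passed and 21 of the 98 had an unadjusted p below 0.05, as did 14% of all genes. Medians of the lists lay between -0.09 and 0.07 on the log2 scale.

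Of 18 other matrix metalloproteinases 9 were tested, 4 higher and 5 lower in rhTM, with a median log2 difference of -0.03. Their differences ran from -0.37 for Mmp25 (leukolysin, a membrane-type enzyme of neutrophils) to 0.17 for Mmp19 (table -0.44 and 0.045). Of the 8 other ADAM genes, all tested, 6 were higher and 2 lower (median 0.05), from -0.08 for Adam33 to 0.33 for Adamdec1, a macrophage and dendritic cell enzyme (table -0.24 and 0.71). The median of this list was 0.30 by the authors' table and 0.32 without both exchanged arrays. The other inhibitors were tested for 2 of 4 genes, both lower, Reck (a membrane-anchored inhibitor) by -0.13 and Timp4 by -0.05 (table -0.29 and -0.09).

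The secreted ADAMTS proteases, several of which cut the proteoglycans aggrecan and versican, held 13 tested genes of 19, with 7 higher, 6 lower and a median log2 difference of 0.01. The extremes were Adamts5 at -0.55, which turned to 0.45 by the authors' table, and Adamts4 at 0.77. Adamts4, an aggrecanase, had levels of 1.27, 1.05 and 1.07 in saline and 4.98, 0.868 and 1.63 in rhTM, so that it peaked on rhTM replicate 1, otherwise lay on both sides of saline and had an exact permutation p of 0.4. That order rested on the exchanged arrays, since by the table every rhTM lung lay above every saline lung and the log2 difference was 1.13 (exact permutation p = 0.1, adjusted p = 0.367 by limma). Adamts1, a versican-cutting protease singled out after its values were seen, had levels of 4.37, 4.36 and 4.46 in saline and 10.4, 4.76 and 7.79 in rhTM. Its order of rhTM lungs, replicate 1 above 3 above 2, was that of Mmp3, and its log2 difference was 0.73 (SE 0.27, exact permutation p = 0.1), with p = 0.034 before and 0.9999 after adjustment by limma. By the table the groups overlapped and the log2 difference was 0.65 (exact permutation p = 0.3), with p = 0.073 before adjustment by limma.

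Of the partners of the sheddases (iRhoms, tetraspanins) and the convertases that remove propeptides, 12 of 13 were tested, 5 higher and 7 lower, with a median log2 difference of -0.01. Pcsk7 was lowest at -0.19 (table -0.33). Pcsk5, a convertase of the furin family, was highest, with levels of 2.02, 2.32 and 2.46 in saline and 3.41, 3.07 and 3.78 in rhTM. All rhTM lungs lay above all saline lungs, and the log2 difference was 0.59 (SE 0.14, exact permutation p = 0.1), with p = 0.0039 before and 0.9999 after adjustment by limma. In the table the groups overlapped and it was 0.19 (exact permutation p = 0.6).

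Serine proteases that activate or accompany metalloproteinases were all tested, 9 of 9, with 5 higher, 4 lower and a median of 0.00. They ran from -0.43 for Plau (urokinase) to 0.39 for Mcpt4, a mast cell chymase, and by the table Plau turned to 0.23 and Mcpt4 was at 0.48. Elane (neutrophil elastase), singled out after its values were seen, stood at 21.0, 1.73 and 1.38 in saline and 1.64, 1.43 and 19.5 in rhTM. The high lungs were saline replicate 1 and rhTM replicate 3, the pair on slide 2, neither of which was the highest for Mmp8 or Mmp9. Its log2 difference was -0.05 from the scanner signals but 2.54 in the table, where both high lungs are rhTM lungs.

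Among 29 shed membrane proteins, all tested, 15 were higher and 14 lower, with a median of 0.00. The list ran from -0.54 for Icam1, the endothelial adhesion molecule, to 1.07 for Areg (amphiregulin), whose precursor is cut by ADAM17. Areg had levels of 0.030, 0.052 and 0.037 in saline and 0.183, 0.034 and 0.087 in rhTM, with rhTM replicate 1 highest and rhTM replicate 2 within the range of saline (exact permutation p = 0.3). By the table Areg was at 0.97 and Icam1 at -0.44, with overlap in both. The syndecans, heparan sulfate proteoglycans of the cell surface, differed by 0.21 (Sdc1), -0.02 (Sdc2), -0.22 (Sdc3) and 0.04 (Sdc4) on the log2 scale, none past the threshold. By the table they differed by 0.24, -0.04, -0.24 and -0.09, so that the sign of Sdc4 turned. Sdc1 was 3.94, 4.08 and 3.63 in saline and 5.75, 3.81 and 4.12 in rhTM, with rhTM replicate 1 above the other 5 lungs. Thbd, the mouse's own thrombomodulin and itself a shed protein, differed by -0.06 (table -0.15).

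Of 16 matrix proteins, all tested, 11 were higher and 5 lower, with a median log2 difference of 0.07. The range was from -0.23 for Bgn (biglycan, table -0.07) to 0.52 for Nid1 (nidogen-1, a basement membrane linker that metalloproteinases cut). Nid1 had levels of 8.38, 9.40 and 10.6 in saline and 14.3, 11.8 and 14.7 in rhTM, with no overlap, an exact permutation p of 0.1 and p = 0.010 before and 0.9999 after adjustment by limma. By the table the groups overlapped, with 1 rhTM lung at 8.38 below all saline lungs, and the log2 difference was 0.19 (exact permutation p = 0.6).

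**Figure D4:**
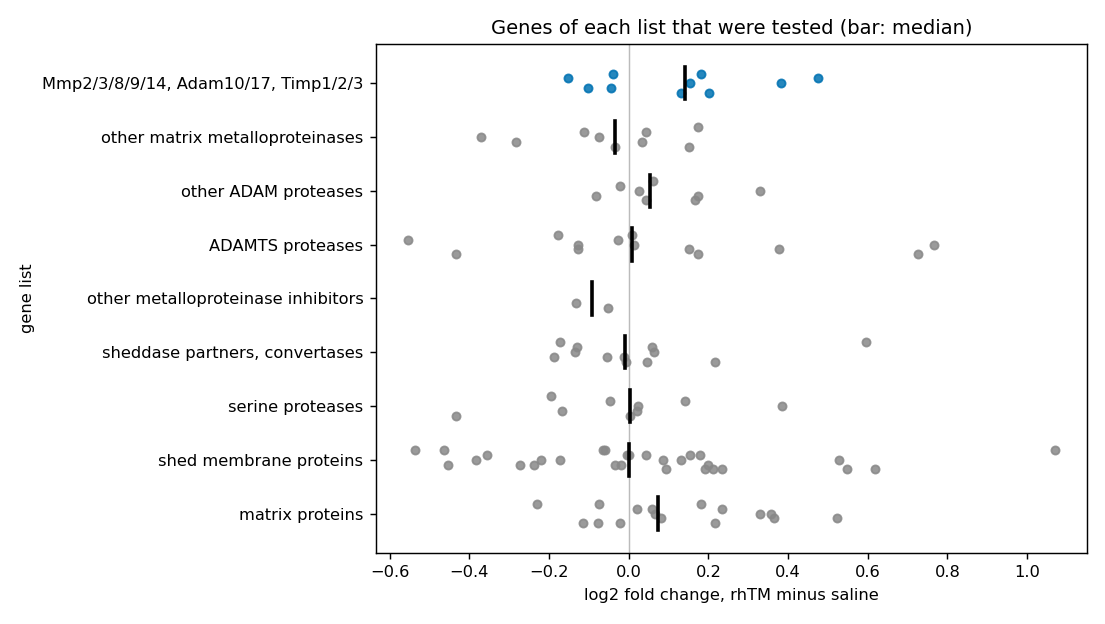
Log2 fold change (rhTM minus saline) of the 10 genes (blue) and of the tested genes of 8 related lists (grey), with the median of each list as a black bar and points spread vertically for legibility. Medians lie within 0.15 of 0, and the widest positive value is that of Areg at 1.07.

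The genes whose log2 values over the 6 arrays, centred on each gene's mean, came nearest to 4 of the 10 were named by the root mean square difference from them. They were Padi3 (0.048), Ablim1 (0.058) and Xkr4 (0.060) for Mmp3, where the median gene was at 0.370. For Mmp8 they were Tmco3 (0.032), Xpnpep2 (0.041) and Atp1b3 (0.046), with the median gene at 0.259. For Mmp9 they were Clcn5 (0.038), Zfyve1 (0.050) and Aqp2 (0.053), with the median gene at 0.310. For Timp1 the nearest were farther off, Nrip3 (0.123), Mylk2 (0.126) and Kif1a (0.127), with the median gene at 0.493. With 6 arrays and 16370 genes, near profiles are found for any gene, and nothing on function follows from them.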

How the data were processed

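Lung RNA of 3 saline and 3 rhTM mice was hybridised to 1-colour Agilent SurePrint G3 Mouse arrays. Per array, the authors deposited the scanner's file, with a linear processed intensity that Feature Extraction had corrected for background but not scaled between arrays. The file headers give version 10.7.3.1 and the submitters' processing notes 9.1. The methods name a simplyRNA kit and the labels an RNeasy kit. The authors also deposited a table of processed intensity values, used as an alternative.

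Control spots and outlier-flagged spots were left out, spots of a probe were averaged, and 398 of 56605 probes with only flagged spots were dropped. Log2 signals were scaled by each array's 75th percentile. Accessions of 32994 probes matched a RefSeq gene table (GRCm38.p6). Probes well above background on every array of either group were kept (36061 probes), and the brightest stood for its gene (16370 genes). Groups came from the sample labels and were compared with limma 3.58.1 in R 4.3.3 (lmFit, eBayes), and p-values were adjusted by Benjamini-Hochberg over the 16370 genes. The fit was tested on simulated data. The small number of arrays limits the precision.

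Genes named are the 10 genes, the highest and lowest tested gene of each list and any that passes, the syndecans, Thbd, and the 3 nearest profiles of Mmp3, Mmp8, Mmp9 and Timp1. Adamts1 and Elane fall outside this rule and were singled out after their values were seen, and markers are named beside the results they touch. The 10 genes and the lists were chosen with earlier results of these data known. Alternatives were normexp background correction (offset 50, on median spot signals), quantile normalization, a percentile over probes above background, the authors' table, no filter or a stricter one, blocks for slide or replicate number, averaged probes, the methods' t-test and leaving out arrays.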

Additional observations from a re-analysis of the deposited data

How the results depend on the processing

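None of the 10 genes passed the threshold under any of 24 alternatives, the lowest adjusted p (limma) being 0.0727, for Timp1 in the authors' table blocked on slide. Of all genes, 432 passed in that fit and 561 in the table without rhTM replicate 1, and 0 in the scanner output. Mmp3 (0.11 to 0.80) and Timp3 (0.08 to 0.25) kept a positive log2 difference in all 24, and the cause of the changes below was not tested.

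Signs turned in the authors' table for Mmp14 (0.064), Adam10 (-0.021) and Timp2 (0.062). In the table blocked on slide, which rests on rhTM replicate 1 alone, signs turned for Mmp2 (-0.22), Mmp9 (0.36) and Mmp14 (0.37). They also turned for Mmp14 without both exchanged arrays (0.018) and for Adam10 by the mean of its probes (-0.0033). Leaving out each array in turn, from the scanner output or from the table, the log2 difference ran from -0.18 to 0.37 for Mmp2, -0.12 to 0.26 for Mmp8, -0.33 to 0.088 for Mmp9, -0.22 to 0.21 for Mmp14, -0.088 to 0.20 for Adam10, -0.35 to 0.058 for Adam17, -0.12 to 0.66 for Timp1 and -0.23 to 0.20 for Timp2. In the scanner output the sign turned without rhTM replicate 3 for Mmp9 (0.070), Mmp14 (0.084) and Adam17 (0.058), without saline replicate 2 for Mmp14 (0.015) and Adam17 (0.053) and without rhTM replicate 2 for Mmp14 (0.015).

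The number of the 10 genes without overlap was 1 under quantile normalization (Mmp3), 1 in the table, blocked on slide or not (Adam17) and 3 under normexp (Mmp3, Adam10 and Timp3). Without both exchanged arrays 2 lay wholly higher in rhTM (Mmp3 and Timp3) and 1 wholly lower (Adam17). Leaving out arrays 1 at a time, the number without overlap ran from 2 to 4 in the scanner output and from 1 to 3 in the table. Of all genes the share without overlap was 5.52% in the scanner output, 10.8% without rhTM replicate 1 and 21.7% in the table. It is not given for the other settings, so their counts cannot be set against it.

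A list median is said to have moved when it changed by at least the pooled SD within groups of the list's median over the arrays. In the table this held for other ADAM proteases (0.30) and sheddase partners (-0.12). It did not hold for serine proteases (0.14), other inhibitors (-0.19) or matrix proteins (-0.003). In the table blocked on slide, which rests on rhTM replicate 1 alone, the medians moved for ADAMTS proteases (-0.27), other inhibitors (-0.34), shed proteins (0.17) and matrix proteins (-0.40). Without both exchanged arrays they were 0.32 for other ADAM proteases and -0.088 for sheddase partners, without a filter 0.15 for other metalloproteinases and 0.19 for other inhibitors, and by the mean of probes -0.093 for sheddase partners.

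Leaving out arrays in the same way, medians ran from -0.089 to 0.078 for other metalloproteinases, 0.023 to 0.32 for other ADAM proteases, -0.18 to 0.17 for ADAMTS proteases, -0.25 to 0.011 for other inhibitors, -0.17 to 0.026 for sheddase partners, -0.11 to 0.22 for serine proteases, -0.17 to 0.074 for shed proteins and -0.20 to 0.23 for matrix proteins. Between 0 and 1 serine proteases (Elane, without rhTM replicate 1) and between 0 and 1 shed proteins (Cd44, likewise) were called in the table. In that fit rhTM and slide 2 coincide, so treatment and slide cannot be told apart.

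Replicate numbers did not pair the arrays, since deviations of same-numbered arrays correlated at -0.30, 0.44 and -0.45. Of the pairs of a saline and an rhTM array, the closest in deviations was saline replicate 1 and rhTM replicate 3 (0.64), which share slide 2. By correlation of whole arrays saline replicate 2 and rhTM replicate 2 (0.995) came before that pair (0.994). With the replicate number as a block 0 genes passed, the lowest adjusted p of the 10 genes was 0.9999 by limma and the log2 differences were unchanged. With 3 lungs a group the 95% intervals are wide, that of Timp1 reaching a fold of 2.31.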
